A study of Homo sapiens with 3 samples.

Results

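The comparison described here set IMR-90 ER:Ras cells in oncogene-induced senescence (OIS) against the same line while growing, on 2 of the 3 expression arrays of the study. IMR-90 is a fibroblast line from normal human lung, and ER:Ras is the inducible Ras it carries, fused to the estrogen receptor's hormone-binding part, that 4-hydroxytamoxifen (4-OHT) switches on. Growing cells had no treatment, and OIS cells were kept for 6 days in 100 nM 4-OHT. The third array, of a culture passaged for 10 weeks into replicative senescence (RS), is given beside them. By their labels all 3 cultures carried ER:Ras and were grown in the same medium with 10% serum. A culture with the 4-OHT vehicle, or with 4-OHT but no ER:Ras, was not analysed here, so an effect of the drug itself and an effect of Ras cannot be told apart.

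Ras relays growth factor signals through the RAF, MEK and ERK kinases to transcription factors, and each layer of the cascade induces its own brakes, such as the dual-specificity phosphatases and the Sprouty proteins. Sustained Ras activity drives normal fibroblasts out of the division cycle into senescence, a lasting arrest in which cells stay metabolically active and secrete cytokines, proteases and growth factors. Division genes and cytokines are the most studied part of this response. The account below is of the other genes: receptors, signalling feedback, matrix, transporters, metabolism, organelles, transcription factors and noncoding RNA.

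Each condition had 1 array, so there is no replicate error, no test between conditions was possible and every difference below is a ratio between 2 cultures. Values are linear signal units in the order growing, OIS and RS wherever 3 are given together. Signals below the floor of 45.5 units, the pooled median of all probe sets, were raised to it before a ratio was formed. A fold given as "at least" therefore has its dimmer array at or below the floor. Of 19775 named genes, 13078 (66.1%) exceeded it on the growing or the OIS array and count as measured. Their median log2 ratio of OIS over growing was -0.02. Within 1.5-fold of each other on both arrays were 9507 genes (72.7%). Within an array only genes with more than 1 probe set were read repeatedly. Over 6540 genes with such a pair the SD of 1 log2 ratio was 0.36, and of 747 genes past 2-fold the second probe set had the same sign for 94.0%. For 58.1% of the 747 the second probe set was also past 2-fold in that direction. The SD covers the probes and not the cultures. Where another measured probe set of a gene given here as past 2-fold fell short of 2-fold, or lay nearer to 0 by more than 1 log2 unit, its log2 ratio is given. In bulk RNA, fewer cells of a kind and less RNA per cell cannot be told apart.

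At least 2-fold higher in OIS were 663 genes, 5.07% of those measured, and 893 were at least 2-fold lower, 6.83%. Past 4-fold were 183 higher genes (1.4%) and 213 lower genes (1.63%). These shares are the background for every count below. Cytokine, chemokine and division genes made up 21 of the higher and 200 of the lower genes, which left 642 and 693 others.

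**Figure D1:**
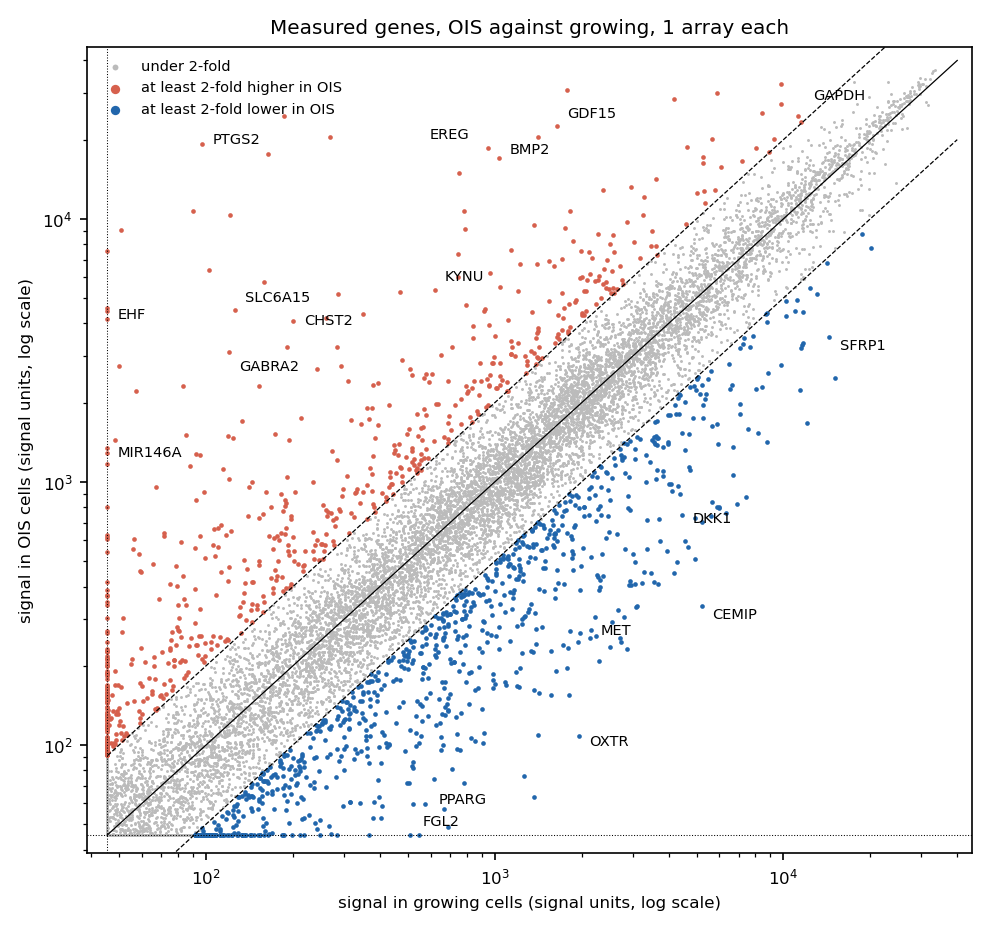
Signal of each of the 13078 measured genes in growing cells (x) and in OIS (y), both in signal units on log axes, 1 array each. The solid line marks equal signal, the dashed lines 2-fold and the dotted lines the floor of 45.5. Genes at least 2-fold higher (red) and lower (blue) spread farthest from the line at low and middle signal, with PTGS2 and EHF at one edge and OXTR and CEMIP at the other.

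Fibroblast markers were bright on every array. Of 18 measured lung fibroblast markers none was at least 2-fold higher and 1, the small proteoglycan decorin (DCN), was lower, at 20075, 7746 and 22971. The collagen genes COL1A1, at 33451, 36639 and 34357, and COL3A1, at 25414, 26989 and 17971, were among the brightest on every array. Of 16 leukocyte markers with a probe set 5 were measured and none passed 2-fold. The defining markers PTPRC, CD163 and TYROBP were below the floor on all arrays, and the summed signal of the list was 584, 623 and 589. Of 16 endothelial markers 5 were measured and 4 of these were at least 2-fold higher in OIS, ROBO4, PECAM1, VWF and ECSCR. The summed signal of that list was 1626, 2482 and 2372. The endothelial receptors and junction genes KDR, CDH5, TIE1 and CLDN5 were below the floor on all arrays. Epithelial markers had a summed signal of 3974, 3821 and 7294. CDH1 and ESRP1, which define epithelium, were below the floor throughout, and EPCAM was 157, 49.1 and 194. Of 14 measured smooth muscle and pericyte markers 4 were at least 2-fold lower in OIS, CNN1, CSPG4, KCNJ8 and ITGA7, and 1, RGS5, was higher, with a median log2 ratio of -0.63. Their summed signal was 25406, 16673 and 39921, lowest in OIS. For ROBO4 the other probe set gave a log2 ratio of 0.28 beside 2.45, for PECAM1 2 gave 0.23 to 0.28 beside 1.46 and for DCN 5 gave -2.60 to -0.96 beside -1.37. The part of other cell types in the results below was not tested.

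The induction itself was checked on the Ras and receptor genes. HRAS had 7696, 11748 and 2553, 1.53-fold higher in OIS than in growing cells. ESR1, the estrogen receptor gene, had 593, 852 and 127, 1.44-fold higher. Whether these probe sets read the fusion transcript is not given in the sources used here, and the fusion is switched on at the protein, so mRNA does not report its activity. The RS array was the lowest of the 3 for both genes, and whether that culture had kept the construct was not tested. GAPDH, a common reference gene, was 23755, 25397 and 25310.0, and ACTB was 25546, 24099 and 29394. Among cell cycle inhibitors 3 were at least 2-fold higher in OIS, with CDKN2B at 743, 7373 and 1230.0, CDKN1A at 6064, 15759.9 and 8247 and CDKN2A at 432, 1040.0 and 1115. For CDKN2B the other probe set gave a log2 ratio of 1.24 beside 3.31.

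The ranking took genes brighter than the floor on the growing and OIS arrays, with no other probe set of opposite sign and with cytokine and division genes left out, which left 8964 genes. The largest ratio was that of PTGS2, 199-fold, given below with prostaglandin synthesis. Among the 25 largest, not all of which are named here, were genes better known from neurons, cartilage and glands. SLC6A15, a neutral amino acid transporter of brain, had 126, 4488 and 237 and was 35.7-fold higher in OIS, and 3 other probe sets gave log2 ratios from 0.69 to 3.83 beside 5.16. GABRA2, a subunit of the GABA-A receptor chloride channel, had 119.7, 3119 and 70.7 and was 26.1-fold higher, and 3 other probe sets gave log2 ratios from 3.33 to 5.13 beside 4.70. CNIH3, an auxiliary subunit of AMPA glutamate receptors, had 191, 3244 and 639.9 and was 17-fold higher. In all 3 the OIS array was the highest, and GABRA2 in RS was below its growing level.

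Others of the 25 encode secreted or matrix-modifying proteins. COL10A1, the collagen of hypertrophic cartilage, had 49.8, 2751 and 42. CHST2, a sulfotransferase of N-acetylglucosamine, had 200.3, 4098 and 168 and was 20.5-fold higher, but a second probe set gave a log2 ratio of 1.18 beside 4.35. EREG, a ligand of the EGF receptor, had 949.9, 18659 and 2328 and was 19.6-fold higher, and a second probe set gave a log2 ratio of 2.47 beside 4.30. CST4, a salivary cystatin that inhibits cysteine proteases, had 119, 1493 and 314 and was 12.5-fold higher. Its neighbours in the family CST1 and CST2 were below the floor in growing cells and were at least 13.4-fold and at least 6.65-fold higher. The type 2 cystatins are near copies of one another, so their probe sets can share transcripts and the 3 values may not be separate.

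Regulators inside the cell were also at the higher end of the ranking. TCIM, a small regulator of transcription and immunity, had 159, 5741 and 286 and was 36.1-fold higher. COXFA4L3, a relative of a cytochrome c oxidase subunit, had 83, 2319 and 678. FOXQ1, a forkhead transcription factor, had 95.2, 1266 and 207 and was 13.3-fold higher. The antisense RNA RIPOR3-AS1 had 287, 5196 and 349, 18.1-fold higher, and was the brightest noncoding RNA at the higher end. C11orf96 had 102, 6406 and 325 and a second probe set gave a log2 ratio of 0.91 beside 5.97.

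A second group was below the floor in growing cells and has only a lower bound. EHF, an epithelial ETS transcription factor, had 13.9, 4156 and 597 and was at least 91.4-fold higher in OIS by its brightest probe set, but 5 other probe sets gave log2 ratios from 0.11 to 1.43 beside 6.51. VNN1, a pantetheinase that recycles vitamin B5, had 31.8, 625 and 127, at least 13.7-fold higher. NDP, the Norrie disease ligand of Frizzled receptors, had 30.8, 542 and 48.1, at least 11.9-fold higher. CBLN2, a secreted organizer of synapses, had 18.6, 349 and 239.9 and SPX, a peptide hormone, had 1.6, 267 and 23.3. For VNN1 the other probe set gave a log2 ratio of 2.10 beside 3.78 and for SPX 1 gave 0.66 beside 2.55. For EHF the RS array was also above the floor and OIS was 6.96-fold higher than RS.

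**Figure D2:**
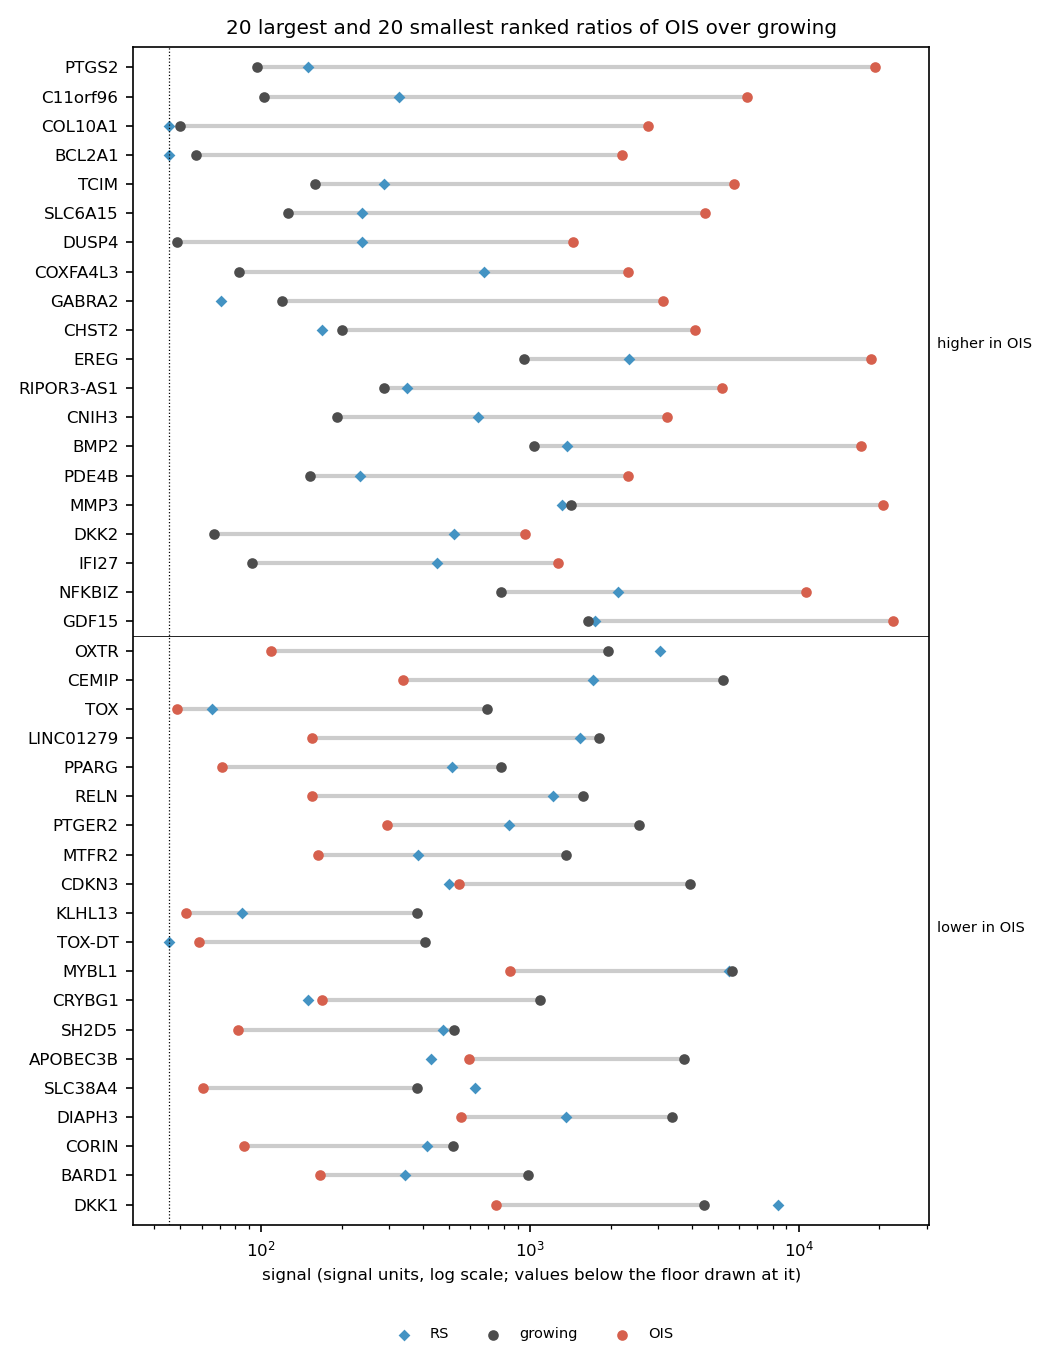
Signal of the 20 genes at the top and the 20 at the bottom of the ranking by the ratio of OIS over growing (x, signal units, log axis; dotted line, floor), with 1 point per array. In the upper block OIS lies rightmost for all 20 genes, and in the lower block RS lies near the growing point for some genes, such as MYBL1 and LINC01279, and near the OIS point for others, such as TOX and CDKN3.

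The lower end held receptors and developmental regulators. OXTR, the oxytocin receptor, had 1952, 108 and 3058, 18-fold lower in OIS and higher in RS than in growing cells. PTGER2, the EP2 receptor of prostaglandin E2, had 2548, 293 and 833, 8.71-fold lower. PPARG, the master regulator of fat cell formation, had 779, 71.7 and 515, 10.9-fold lower. TOX, a chromatin-binding HMG-box factor, had 690.2, 48.8 and 65.9, 14.1-fold lower by its brightest probe set, and a second probe set gave a log2 ratio of -0.10 beside -3.82. The divergent transcript at its start, TOX-DT, had 407, 58.8 and 33.5. RS was close to growing for PPARG and as low as OIS for TOX and TOX-DT.

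Single matrix and transcription genes stood at the lower end too. CEMIP, which depolymerizes hyaluronan, had 5210.5, 337 and 1724 and was 15.5-fold lower. RELN, the secreted glycoprotein reelin, had 1569.8, 155 and 1223, 10.1-fold lower. MYBL1, a MYB family activator, had 5661, 842 and 5519, 6.73-fold lower by its brightest probe set, with RS at the growing level, but a second probe set gave a log2 ratio of -0.03 beside -2.75. APOBEC3B, a cytidine deaminase, had 3747, 594 and 429, 6.31-fold lower, with RS lower still. OSR1, a zinc finger factor of lung mesenchyme, had 269.6, 45.9 and 209, 5.87-fold lower. Among genes below the floor in OIS, FGL2, a fibrinogen-like protein, had 508, 0.7 and 163 and was at least 11.2-fold lower. ADAMTSL1 was at least 8.03-fold lower at 366, 41.3 and 267, but 3 other probe sets gave log2 ratios from -1.29 to -0.68 beside -3.01. C7, a complement component, had 133, 3.4 and 229. Some of the 25 lowest, CDKN3, BARD1, DIAPH3 and MTFR2, are known to follow the division cycle although they were not in the division list.

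Feedback genes of the Ras pathway passed 2-fold mostly on the higher side, while 25 of 37 stayed within it. Of 37 measured feedback genes 10 were at least 2-fold higher (27.0%, against 5.07% of all genes) and 2 lower, with a median log2 ratio of 0.21. The phosphatase DUSP4, which acts on nuclear MAP kinases, had 48.5, 1445 and 236, 29.8-fold higher, and 2 other probe sets gave log2 ratios from 2.64 to 4.27 beside 4.90. DUSP6, which acts on cytoplasmic ERK, had 4633, 18717 and 8209, 4.04-fold higher, and 2 other probe sets gave log2 ratios from 2.54 to 2.67 beside 2.01. Among the Sprouty and Spred inhibitors SPRY4 had 394, 1639.8 and 1144, SPRY2 had 1811, 4762 and 3658, SPRY1 had 259, 782 and 218 and SPRED2 had 1017, 2265 and 1022. SPRED1, at 3274, 4639.5 and 3811, and DUSP5, at 1540.5, 2830.3 and 1937, stayed under 2-fold. SPRY4-IT1, a noncoding RNA inside SPRY4, was at least 7.47-fold higher at 24, 339.7 and 318. For SPRY1 the other probe set gave a log2 ratio of 0.74 beside 1.59.

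Other genes of the pathway are brakes, exchange factors and a kinase. Not every gene named here and in the paragraph before is in the list. ERRFI1, an inhibitor of the EGF receptor, had 3472, 7914 and 10132, and was higher still in RS. RASGRP3, an exchange factor that loads Ras with GTP, had 79.3, 401 and 117, 5.06-fold higher. DIRAS3, an imprinted small GTPase, had 144, 414 and 104. MAP3K8, the kinase TPL2 that joins inflammatory signals to ERK, had 27.8, 800.3 and 45.2, at least 17.6-fold higher. The list's lower members were LRIG3, at 619, 231 and 158, and RASAL1, at 107, 42 and 70.5. DUSP1, the phosphatase of stress kinases, was higher mainly in the other senescent culture, with 3198, 3712 and 10375: 1.16-fold higher in OIS and 3.24-fold higher in RS, each against growing cells.

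Among receptor tyrosine kinases the balance went the other way. Of 25 measured, 1 was at least 2-fold higher and 4 were lower. FLT1, a receptor of VEGF, had 242, 2688 and 1165, 11.1-fold higher, although 4 other probe sets gave log2 ratios from 0.48 to 3.46 beside 3.47. MET, the receptor of hepatocyte growth factor, had 2146, 272 and 3223, 7.88-fold lower by its brightest probe set, and a second probe set gave a log2 ratio of 0.02 beside -2.98. KIT had 398, 97.9 and 138, 4.06-fold lower, and AXL had 10218, 4276 and 7954, 2.39-fold lower. The receptors PDGFRA, at 9535, 10223 and 9826, EGFR, at 3733, 5025 and 3281, and DDR2, at 4693, 3718 and 5944, were under 2-fold. By its brightest probe set MET was above its growing level in RS, but its second probe set was not lower in OIS.

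The ligands of these receptors were mixed. Of 45 measured growth and vascular factors 10 were higher and 5 lower. STC1, the hormone stanniocalcin-1, had 4185, 28482 and 9593, 6.81-fold higher. VEGFA had 2507, 8027 and 1913, 3.20-fold higher, and ANGPTL4, a hypoxia- and PPAR-responsive inhibitor of lipoprotein lipase, had 115, 1117 and 808, 9.73-fold higher. PDGFB had 84.3, 208 and 364 and ESM1 had 88.8, 255 and 126. The other 30 of the list were within 2-fold, and its median log2 ratio was 0.14. For VEGFA 3 other probe sets gave log2 ratios of 0.41 to 2.13 beside 1.68, for ANGPTL4 1 gave 1.81 beside 3.28 and for PDGFB 1 gave 0.05 beside 1.31. FGF2 was the 1 fibroblast growth factor past 2-fold on the higher side, at 2274, 5829 and 3514. FGF5 had 1616, 361 and 1664, FGF1 had 324, 88.4 and 999, FGF7 had 796, 311 and 882 and FGF9 had 190.5, 61.3 and 173. These 4 were lower in OIS, by 4.48, 3.67, 2.56 and 3.11 fold, and none of them was 2-fold lower in RS. For FGF1 2 other probe sets gave log2 ratios of -1.87 to -0.30 beside -1.87 and for FGF9 1 gave -0.76 beside -1.64.

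G protein-coupled receptors were lower more often than higher. Of 62 measured, 11 were at least 2-fold lower (17.7%, against 6.83% of all genes) and 5 higher (8.06%), with a median log2 ratio of -0.15. Beside OXTR and PTGER2, GPRC5A, an orphan receptor induced by retinoic acid, had 655, 131 and 798, 4.99-fold lower. SSTR1, a somatostatin receptor, had 596, 158 and 969, 3.78-fold lower. S1PR1, a receptor of sphingosine 1-phosphate, had 184, 32.8 and 133 and CHRM2, a muscarinic receptor, had 142, 5.5 and 151. CHRM2, SSTR1, GPRC5A and OXTR were each at or above their growing level in RS.

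The 5 receptors on the higher side included 2 of peptides. BDKRB2, the constitutive bradykinin receptor, had 1398, 6743 and 1313, 4.82-fold higher, while the inducible BDKRB1 had 5253, 4666 and 6583. EDNRB, an endothelin receptor, had 256, 545 and 144. GPR183, the oxysterol receptor EBI2, had 58.9, 459.8 and 92.4, 7.81-fold higher, and HTR7, a serotonin receptor coupled to cAMP, had 109.9, 567 and 247, 5.16-fold higher. The brightest members of the list, the thrombin receptor F2R at 13673, 19386 and 12438 and the lysophosphatidic acid receptor LPAR1 at 12223, 7332 and 11247, were under 2-fold.

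Regulators downstream of these receptors had 6 higher and 3 lower of 42 measured. PDE4B, which breaks down cAMP, had 152, 2316 and 234, 15.2-fold higher, and a second probe set gave a log2 ratio of 3.41 beside 3.93. RGS2, which switches off Gq, had 955, 3951 and 1398, 4.14-fold higher. RGS5, the 1 higher gene of the smooth muscle and pericyte markers given above, had 309, 2412 and 1006, but 4 other probe sets gave log2 ratios from -0.75 to 3.62 beside 2.97. RGS1, a leukocyte gene, was at least 4.68-fold higher at 5.4, 213 and 14.4. AKAP12, a scaffold of protein kinase A, had 2227, 5804 and 1236. On the lower side ADCY7, an adenylyl cyclase, had 687, 282 and 1133, and a second probe set gave a log2 ratio of 0.00 beside -1.28.

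**Figure D3:**
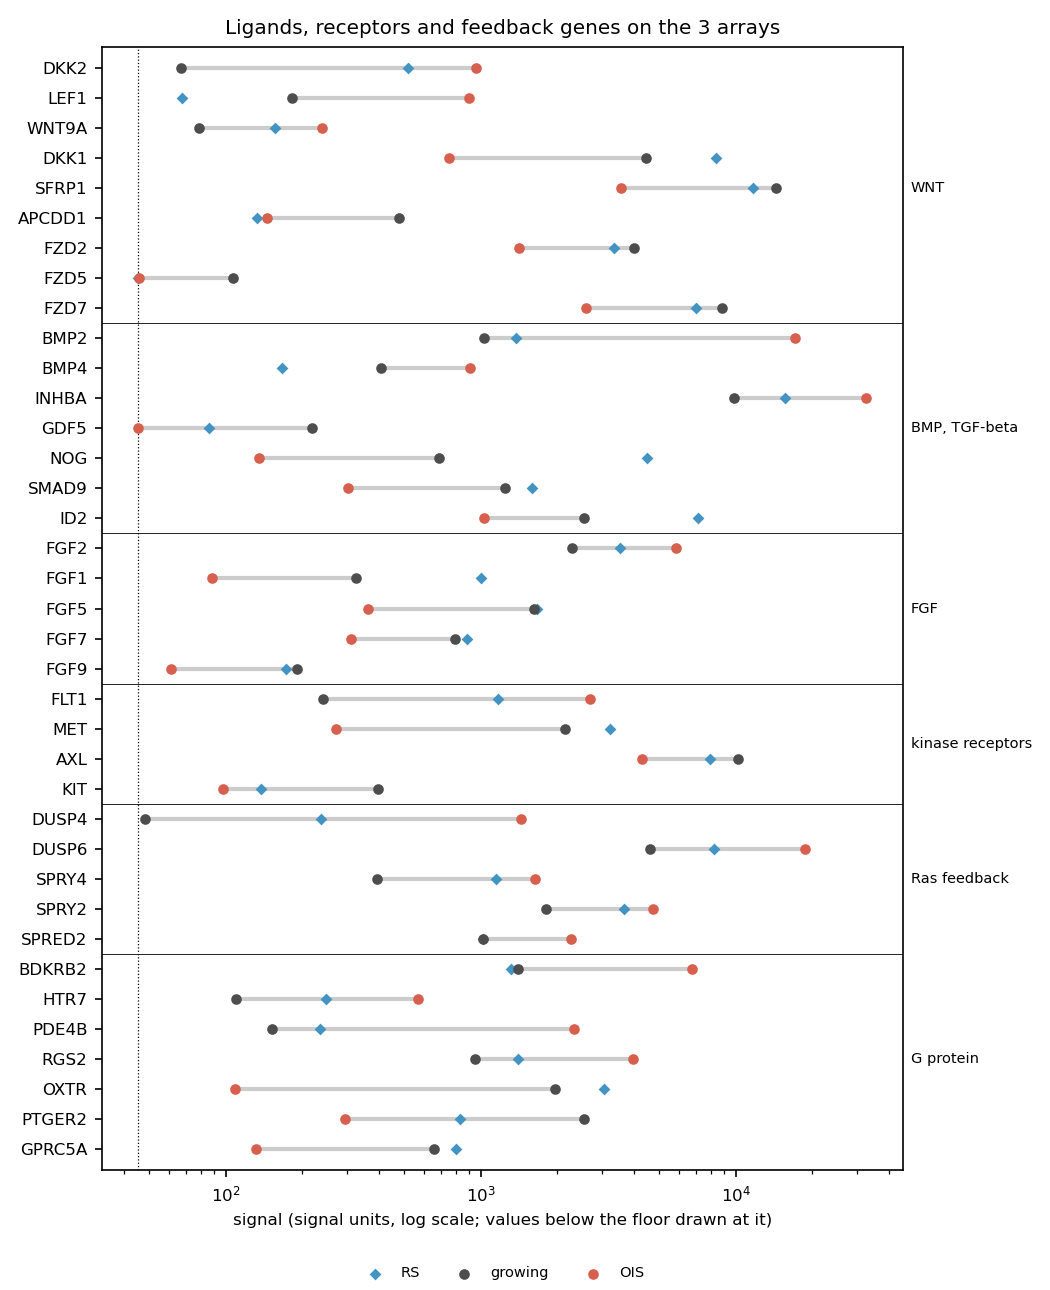
Signal of ligands, receptors and feedback genes of 6 pathways (x, signal units, log axis; dotted line, floor), 1 point per array and grey bars joining growing to OIS. In the WNT, BMP and FGF blocks the bars run in both directions. The 5 Ras feedback genes shown were picked among those at least 2-fold higher, so their bars run from growing on the left to OIS.

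WNT antagonists and receptors were split. DKK1, a secreted blocker of the LRP co-receptors, had 4462, 750.5 and 8349, 5.95-fold lower in OIS and higher in RS than in growing cells. DKK2, its relative, had 66.9, 959.6 and 521, 14.3-fold higher. SFRP1, which binds WNT ligands, had 14402, 3539 and 11722, 4.07-fold lower, and 2 other probe sets gave log2 ratios from -3.49 to -3.18 beside -2.02. Among the Frizzled receptors FZD7 had 8821, 2585 and 6974, FZD2 had 3990.5, 1412 and 3335 and FZD5 had 107, 45.6 and 39.1, all at least 2-fold lower, whereas FZD6 had 6068, 5587 and 7999. LEF1, a transcription factor that binds beta-catenin and is a target of the pathway, had 182, 898 and 67.5, 4.94-fold higher in OIS and below the growing level in RS. The non-canonical ligand WNT5A had 14912, 23304 and 17505, under 2-fold. APCDD1, a membrane inhibitor of the pathway, had 480.5, 146 and 132, 3.30-fold lower and as low in RS. The WNT list does not hold all the genes named here. Of its 25 measured genes 4 were higher and 3 lower, with a median log2 ratio of 0.10.

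The BMP and activin genes were split as well. Of 50 measured genes of the list 7 were higher and 5 lower. BMP2 had 1034, 17049 and 1371, 16.5-fold higher in OIS, and a second probe set gave a log2 ratio of 4.62 beside 4.04. BMP4 had 407, 910.0 and 166, and INHBA, the activin A subunit, had 9809, 32485 and 15566, 3.31-fold higher. GDF5, a BMP family ligand of joints, was at least 4.81-fold lower at 219, 39 and 86.3. NOG, which encodes the BMP antagonist noggin, had 689.6, 135 and 4506, 5.09-fold lower in OIS and 6.53-fold higher in RS. ID2, a direct target of BMP signalling, had 2546, 1034 and 7137, 2.46-fold lower in OIS and 2.80-fold higher in RS. NOG and ID2 therefore stood on opposite sides of the growing level in the 2 senescent cultures, and OIS was 33.3-fold lower than RS for NOG and 6.90-fold lower for ID2. SMAD9, a BMP-activated SMAD, had 1243, 302 and 1592, 4.11-fold lower, and SMAD1 had 2129.9, 6165 and 656, although 2 other probe sets gave log2 ratios from 0.02 to 1.56 beside 1.53. SMAD7, the inhibitory SMAD, had 348, 915 and 1662. ACVRL1, the endothelial BMP receptor ALK1, had 95.5, 623 and 167, 6.52-fold higher, and a second probe set gave a log2 ratio of 1.30 beside 2.71. The antagonist GREM1, at 25769.7, 21999 and 16979, and the receptor TGFBR2, at 7364, 12272 and 10845, were under 2-fold.

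Receptors for cytokines were higher more often than lower. Of 47 measured, 9 were at least 2-fold higher (19.1%) and 1 lower, with a median log2 ratio of 0.35. IL4R had 635, 1968 and 1108, and IL13RA2, the decoy receptor of interleukin-13, had 189.6, 830.3 and 87.6, 4.38-fold higher. IL31RA had 189, 668 and 144, IL27RA had 94.9, 328 and 51 and TNFRSF21, a death receptor, had 592, 2398 and 1673. TNFRSF10B, a receptor of TRAIL and a p53 target, had 7165, 16528 and 9056, 2.31-fold higher. The 1 receptor on the lower side was LIFR, the receptor of LIF, at 1086, 319 and 369.7, 3.40-fold lower and nearly as low in RS. IL1RAP, the shared chain of interleukin-1 receptors, had 157, 752 and 459, but a second probe set gave a log2 ratio of -0.09 beside 2.26. IL6ST, the shared chain gp130, had 23903, 23133 and 19341. For IL27RA the other probe set gave a log2 ratio of 0.95 beside 1.79 and for LIFR 3 gave -1.73 to -0.90 beside -1.77.

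Guidance cues and adhesion genes differed one by one. SEMA7A, a membrane-anchored semaphorin, had 360.2, 1908 and 687, 5.30-fold higher, and SEMA6D had 919, 4443 and 2206, 4.84-fold higher. SLIT2, a secreted repellent, had 913, 296 and 194, 3.09-fold lower, and its receptor ROBO1 had 4292, 5809 and 2943. RGMB, a BMP co-receptor of axon guidance, had 2929, 780.3 and 5786, 3.75-fold lower in OIS and 1.98-fold higher in RS. NRG1, the neuregulin ligand of ERBB receptors, had 376, 1910.2 and 1756, 5.08-fold higher, with RS at nearly the same level. Integrins had 4 higher and 1 lower of 21. The collagen receptors ITGA1, at 1405, 3677 and 1376, and ITGA11, at 465, 1398 and 640.0, were higher, while ITGB1 had 26184, 28784 and 31517. ITGB8, which activates latent TGF-beta, had 808, 2207 and 80.3: 2.73-fold higher in OIS and 10.1-fold lower in RS, and a second probe set gave a log2 ratio of 0.40 beside 1.45. The junction protein JUP, plakoglobin, had 343, 1653 and 537, 4.81-fold higher, and PDPN, podoplanin, had 55.9, 556 and 52.2, 9.94-fold higher. For SEMA7A the other probe set gave a log2 ratio of 1.03 beside 2.40, for ITGA11 2 gave 0.76 to 1.13 beside 1.59 and for PDPN 2 gave 1.46 to 2.62 beside 3.31.

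Proteases of the matrix were higher more often than lower. Of 42 measured MMP, ADAM, ADAMTS and TIMP genes 10 were higher (23.8%) and 6 lower (14.3%). The median log2 ratio was 0.41, and 0.04 when a gene's probe sets were combined by their median. The stromelysins MMP3, at 1417, 20539 and 1322, and MMP10, at 87.9, 1144 and 25.9, lie in 1 gene cluster with the collagenase MMP1, which had 17604, 33064 and 4444 and so was under 2-fold in OIS and 3.96-fold lower in RS. ADAM19, a sheddase, had 1218, 6733 and 3312, 5.53-fold higher, and MMP14, a membrane-bound activator of other MMPs, had 2044, 5316 and 2179.6. On the lower side RECK, a membrane inhibitor of MMPs, had 5498, 2469 and 8967, 2.23-fold lower, and ADAMTS1 had 7860.0, 3594 and 8375. The inhibitors TIMP1, at 23063, 33132 and 27754, and TIMP2, at 14932, 16664 and 19449, were under 2-fold. For MMP14 3 other probe sets gave log2 ratios of 0.75 to 1.74 beside 1.38, for RECK 3 gave -1.63 to -0.14 beside -1.16 and for ADAMTS1 1 gave -0.78 beside -1.13.

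Proteoglycan and hyaluronan genes were the list with the largest excess of lower members among the matrix lists, with 7 lower and 2 higher of 33. Hyaluronan breakdown was read by 2 related genes in opposite directions: CEMIP was 15.5-fold lower, and CEMIP2, its membrane-bound relative, had 2071, 5327 and 2500.3, 2.57-fold higher. TNFAIP6, which crosslinks hyaluronan, had 729.8, 1964 and 83.4, 2.69-fold higher in OIS and 8.75-fold lower in RS. The cell surface proteoglycans SDC1, at 670.3, 266 and 278, CSPG4, at 621, 220.0 and 440.1, GPC6, at 1705, 687 and 925, and TGFBR3, at 956, 356 and 477, were lower. HMMR, a hyaluronan receptor that also belongs to the mitotic spindle, had 4281, 498 and 727. POSTN, periostin, had 11197, 24524 and 412: 2.19-fold higher in OIS and 27.2-fold lower in RS. MATN2 and MATN3, matrilins, had 749, 192 and 725 and 700.0, 156 and 471, 3.91-fold and 4.50-fold lower. FN1, SPARC and THBS1 were within 1.5-fold, with FN1 at 29571, 32536 and 30595. For GPC6 the other probe set gave a log2 ratio of -0.58 beside -1.31 and for POSTN 3 gave -0.27 to 1.68 beside 1.13.

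Genes of clotting and plasminogen activation passed 2-fold mostly on the higher side, while 18 of 28 stayed within it. Of 28 measured, 9 were at least 2-fold higher (32.1%) and 1 lower, and the median log2 ratio of 0.57 was the highest of the lists of 20 or more measured genes in the plot of list members. The anticoagulant genes THBD, thrombomodulin, at 6.9, 372 and 75.6, PROCR, the protein C receptor, at 1394, 2805 and 1203, TFPI2, at 8445, 25348 and 1428, and SERPIND1, heparin cofactor II, at 71.7, 636 and 40.9, were all on the higher side. For THBD 2 other probe sets gave log2 ratios of 0.59 to 1.31 beside 3.03. PLAT, tissue plasminogen activator, had 5259, 17237 and 11199, 3.28-fold higher. Tissue factor, F3, had 15940.4, 23012 and 22267 and the urokinase gene PLAU had 17982, 27300.0 and 25096, both under 2-fold. F10, clotting factor X, was the 1 lower member, at 154, 68.3 and 179. TFPI2 was 5.91-fold lower in RS, and OIS was 17.7-fold higher than RS.

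**Figure D4:**
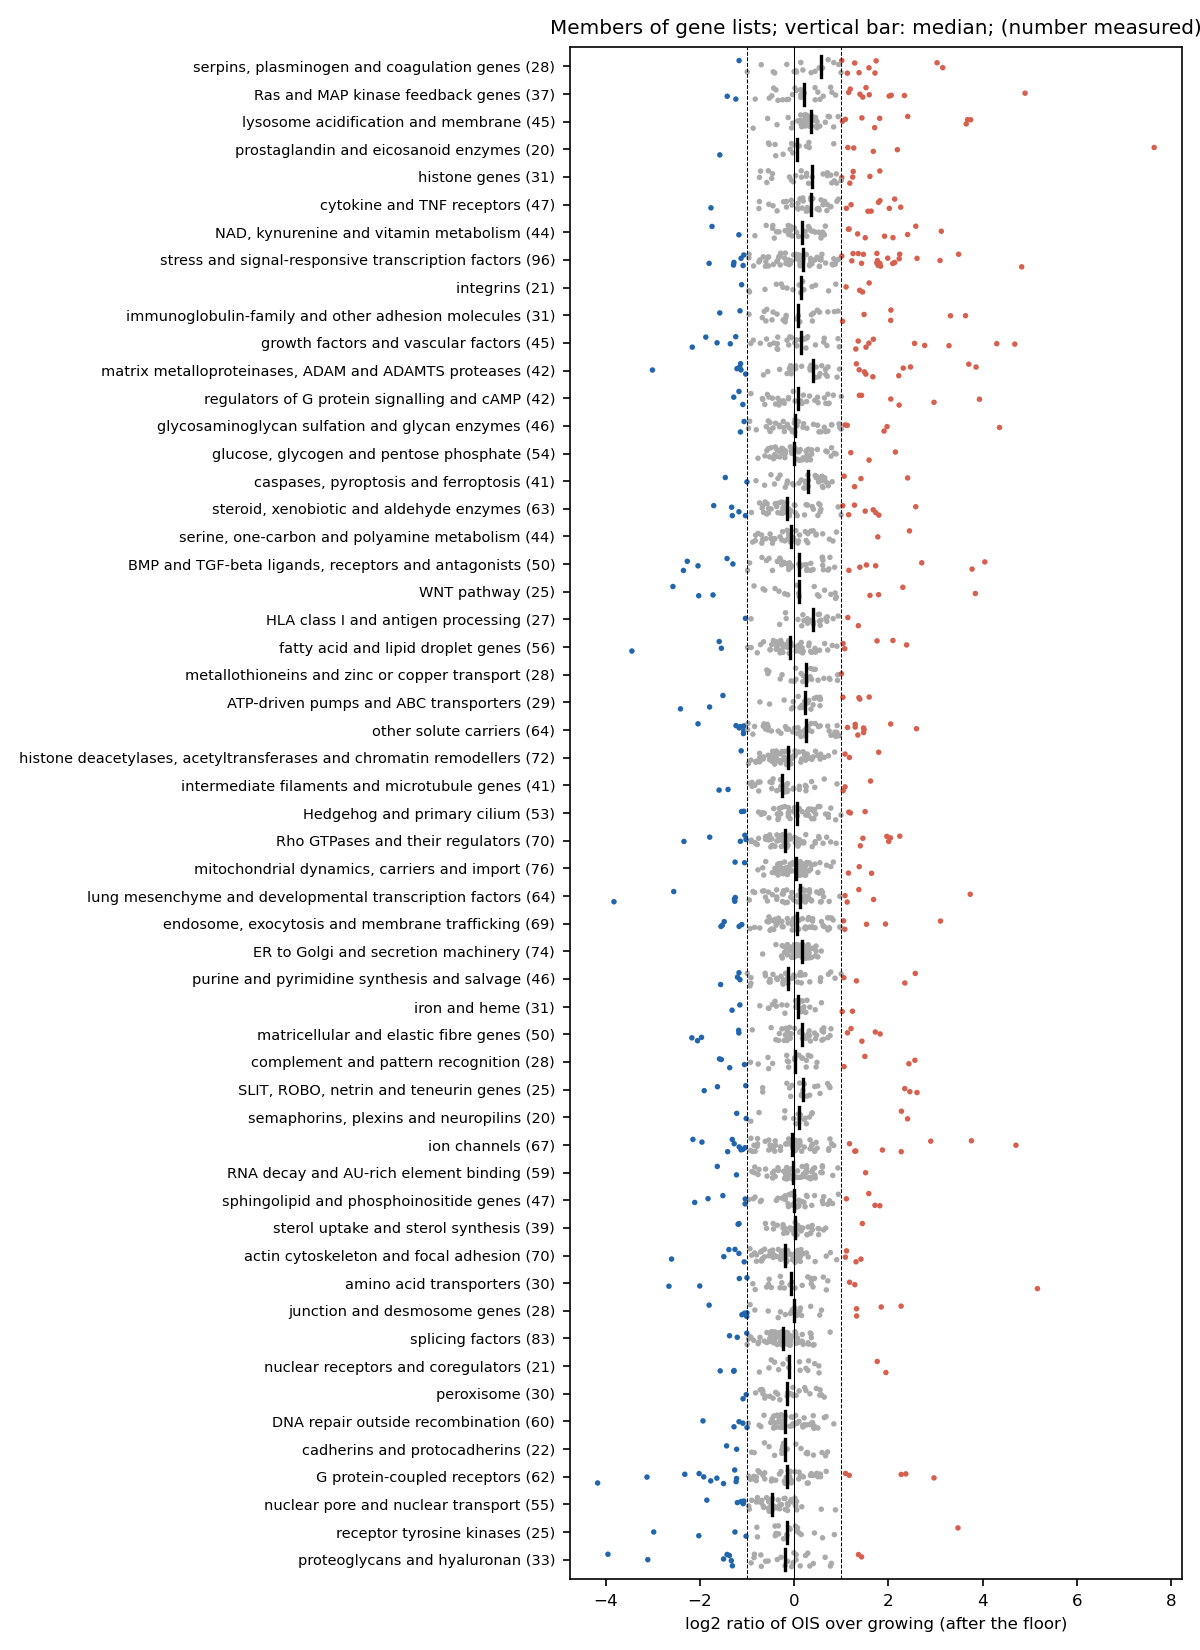
Log2 ratio of OIS over growing (x) for each measured member of the gene lists with 20 or more measured genes, 1 point per gene, with the list median as a black bar and the number measured in brackets. The cytokine and division lists are left out. Lists are ordered by the share of members at least 2-fold higher (red) minus the share at least 2-fold lower (blue). Nearly all medians lie within 0.5 of 0, and the lists differ mainly in single members far from it.

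Genes of 3 consecutive steps of prostaglandin synthesis were higher. PLA2G4A, the cytosolic phospholipase that releases arachidonic acid, had 429.7, 1958 and 144, 4.56-fold higher in OIS and 2.99-fold lower in RS. PTGS2, cyclooxygenase-2, had 96.5, 19178 and 149.9, and a second probe set gave a log2 ratio of 7.11 beside 7.63. PTGES, the inducible prostaglandin E synthase, had 109, 239.7 and 102, 2.20-fold higher, and a second probe set gave a log2 ratio of 0.86 beside 1.14. The constitutive enzymes PTGS1, at 5307, 6354 and 4623, and PTGES3, at 16875, 16795 and 14431, were under 2-fold. ALOX5AP, the activator of the leukotriene pathway, had 70.5, 226 and 42.4, and TBXAS1, thromboxane synthase, had 239, 573 and 298. Of the 20 measured genes of the list 5 were higher and 1, the carbonyl reductase CBR3 at 1489, 499 and 949, lower. PTGER2, which encodes EP2 and so only a part of the receptors of prostaglandin E2, was among the lowest genes, as given above.

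Enzymes of tryptophan, NAD, retinoid and pterin metabolism mostly stayed within 2-fold, 33 of 44, and those past it were more often higher. Of 44 measured genes 9 were at least 2-fold higher (20.5%) and 2 lower. The median log2 ratio was 0.17, and 0.00 when a gene's probe sets were combined by their median. KYNU, kynureninase, which cleaves kynurenine on the path from tryptophan to NAD, had 619, 5382 and 462, 8.70-fold higher. QPRT, which turns its later product quinolinate into an NAD precursor, had 517, 1314 and 690.5, 2.54-fold higher. NAMPT, the rate-limiting enzyme of NAD salvage, had 1748, 9257 and 1228, 5.30-fold higher, and 3 other probe sets gave log2 ratios from 1.90 to 2.60 beside 2.40. In RS all 3 were within 1.5-fold of their growing level. BST1, an NAD-consuming ectoenzyme, had 213, 63.6 and 208, 3.35-fold lower, and the mitochondrial sirtuin SIRT5 had 309, 137 and 263. GCH1, which makes the cofactor tetrahydrobiopterin, had 197, 744 and 254, 3.77-fold higher. For KYNU 3 other probe sets gave log2 ratios of 0.87 to 3.03 beside 3.12, for QPRT 1 gave 0.81 beside 1.35 and for SIRT5 3 gave -1.03 to 0.11 beside -1.17.

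In the retinoid path RDH10, which oxidizes retinol, had 1703, 3784 and 2097, and ALDH1A3, which makes retinoic acid, had 376, 1067 and 81.6, 2.84-fold higher in OIS and 4.60-fold lower in RS. CYP26B1, which degrades retinoic acid, was at least 5.97-fold higher at 5.4, 272 and 43.2. The receptor RARA had 91.7, 392 and 257, but 2 other probe sets gave log2 ratios from -0.79 to 0.03 beside 2.10. Thus a gene of synthesis and a gene of breakdown were both on the higher side. AHR, the aryl hydrocarbon receptor, which binds tryptophan metabolites, had 886, 2831 and 904, 3.19-fold higher, and its target CYP1A1 was at least 3.47-fold higher at 20.8, 158 and 5.8.

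Of polyamine breakdown 2 genes were higher. SAT1, the acetyltransferase that starts spermidine and spermine breakdown, had 2363, 12863 and 5482, 5.44-fold higher, and 2 other probe sets gave log2 ratios from 2.47 to 2.69 beside 2.44. SMOX, spermine oxidase, had 308, 1052 and 293, 3.42-fold higher. They were the 2 members past 2-fold of 44 measured in the serine, one-carbon and polyamine list. That is 4.5%, near the 5.07% of all genes that were at least 2-fold higher. ODC1, which starts polyamine synthesis, had 9985, 8996 and 7694. The antizyme OAZ1 had 24159.7, 25488 and 26599.6, and the one-carbon enzyme MTHFD2 had 13189.9, 9588 and 6782. In nucleotide metabolism AMPD3, AMP deaminase, had 794, 4709.9 and 1208, 5.93-fold higher, and DCK, which salvages deoxynucleosides, had 2508, 850.3 and 1422, 2.95-fold lower. SAMHD1, which destroys deoxynucleotides, had 1619, 3360.0 and 1712, 2.08-fold higher. For SAMHD1 4 other probe sets gave log2 ratios of -0.02 to 1.17 beside 1.05.

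Lipid genes showed no common direction. Of 56 measured fatty acid and lipid droplet genes 5 were higher and 3 lower. G0S2, an inhibitor of fat breakdown, had 68.9, 359.5 and 94.2, 5.22-fold higher. The cholesterol exporters ABCA1, at 990.0, 2982 and 1270.2, and ABCG1, at 92.8, 240.3 and 81.6, were higher by 3.01 and 2.59 fold. With all probe sets of a gene, dim ones too, combined by their median, their log2 ratios were 0.70 for ABCA1 and 0.24 for ABCG1, under 2-fold. For ABCG1 the other probe set gave a log2 ratio of 0.49 beside 1.37. Sterol synthesis and uptake genes had 1 higher and 2 lower of 39. In sphingolipid and inositol lipid signalling SPHK1, which makes sphingosine 1-phosphate, had 192, 575 and 325, 2.99-fold higher, and INPP4B, a lipid phosphatase, had 368, 85.2 and 212, 4.32-fold lower. PLCB4, a phospholipase C of the Gq path, had 3626, 1022 and 8944, 3.55-fold lower in OIS and 2.47-fold higher in RS.

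Channels and transporters differed in both directions. Of 67 measured channel genes 8 were higher and 9 lower. The inward rectifier potassium channels went different ways: KCNJ15 was at least 13.5-fold higher at 31.6, 616 and 121, KCNJ2 had 879, 198 and 1568, 4.43-fold lower, and KCNJ8 had 300.0, 124 and 44.8, 2.42-fold lower. CACNA2D3, a calcium channel subunit, had 194, 1442 and 104, 7.44-fold higher, and CHRNA1, the muscle acetylcholine receptor subunit, had 273, 1315 and 218, 4.82-fold higher. SCN9A, a sodium channel of sensory neurons, had 1335, 344 and 1843, 3.88-fold lower. TRPA1, an irritant-gated channel and the brightest of the list in OIS, had 13468, 22353 and 9123. The urea transporter SLC14A1 had 393, 2372 and 1413, 6.04-fold higher, and SLC20A1, a phosphate importer, had 9773, 27294 and 21486, 2.79-fold higher. SLC7A11, the cystine importer, had 8674, 4332 and 3718, just past 2-fold lower. The calcium pump ATP2B4 had 5668, 1634 and 8252 and the sodium-calcium exchanger SLC8A1 had 1273, 309.5 and 1119.6, 3.47-fold and 4.11-fold lower, while both stayed within 2-fold of growing in RS. For KCNJ15 2 other probe sets gave log2 ratios of 1.57 to 2.34 beside 3.76, for SLC7A11 2 gave -1.04 to -0.39, for ATP2B4 2 gave -1.60 to -0.41 beside -1.79 and for SLC8A1 5 gave -1.97 to -0.64 beside -2.04.

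Genes of the secretory route stayed within 2-fold. None of 74 measured genes of ER to Golgi transport and protein secretion passed 2-fold in either direction, and the median log2 ratio was 0.17. The cargo receptor TMED2 had 21556, 23708 and 23454 and the translocon subunit SEC61B had 16849.9, 19311 and 14654. Regulated exocytosis was different in single genes. SYTL5, a RAB27 effector, had 119.6, 1027 and 737, 8.59-fold higher, and RAB27B had 383, 1466 and 767, 3.83-fold higher. For RAB27B the other probe set gave a log2 ratio of 0.78 beside 1.94. The caveolar coat gene CAVIN2 had 1888, 675 and 1159, 2.80-fold lower, while CAV1 had 31793, 27029.8 and 35834.

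In the list of lysosome acidification, cathepsins and cystatins 9 of 45 measured genes were at least 2-fold higher (20%), with no lower member past that fold and a median log2 ratio of 0.36. The higher genes were mostly cysteine proteases and their inhibitors. CTSS had 133, 1702 and 152, CTSK had 1040.0, 5523 and 1888 and CTSH had 153, 499 and 68.7, and the inhibitor CST3, cystatin C, had 2126, 7472 and 4195, 3.51-fold higher. The proton pump subunit ATP6V1C1, at 1823, 3869.6 and 2359, was just past 2-fold higher. The membrane protein LAMP1, at 17572, 19327 and 18834, was under 2-fold. Mitochondrial carriers and import genes had 3 higher and 2 lower of 76. SLC25A37, the iron importer mitoferrin, had 577, 1799 and 799, 3.12-fold higher, and the uncoupler UCP2 had 474, 199 and 509, 2.39-fold lower. For CTSS 2 other probe sets gave log2 ratios of 2.64 to 3.17 beside 3.68, for CST3 2 gave 0.89 to 1.67 beside 1.81 and for ATP6V1C1 3 gave 0.17 to 0.88 beside 1.09. For SLC25A37 9 other probe sets gave log2 ratios of 0.38 to 2.51 beside 1.64 and for UCP2 1 gave -0.82 beside -1.25.

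Signal-responsive transcription factors mostly stayed within 2-fold, 69 of 96, and those past it were more often higher. Of 96 measured, 21 were at least 2-fold higher (21.9%) and 6 lower (6.25%), with a median log2 ratio of 0.18. All 3 measured EGR factors that passed 2-fold were higher: EGR1, an immediate target of ERK, had 2558, 8699 and 2652, 3.40-fold higher, EGR3 had 44.5, 1289 and 209.6 and EGR4 had 2.1, 388 and 11.4. ETV1 and ETV4, ETS factors downstream of Ras, had 1138, 3065 and 1272 and 77.6, 199 and 46. PRDM1, the repressor BLIMP1, had 469, 5257 and 1289, 11.2-fold higher, and NFATC2, a calcium-responsive factor, had 109.6, 667 and 137, 6.08-fold higher. The orphan nuclear receptors NR4A2 and NR4A3 had 120.2, 475 and 256 and 285, 1211 and 102. For EGR4 the other probe set gave a log2 ratio of 1.51 beside 3.09, for ETV1 4 gave 0.40 to 1.16 beside 1.43 and for PRDM1 2 gave 1.52 to 1.59 beside 3.49.

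Stress and clock factors differed as well. ATF3 had 566, 2482 and 666, 4.38-fold higher, and MAFF, a small MAF factor, had 5649, 20105 and 7697, 3.56-fold higher. BHLHE40 and BHLHE41, repressors of the circadian clock, had 839, 3928 and 1691 and 108, 372 and 122, 4.68-fold and 3.44-fold higher, whereas NR1D2 and PER3 had 3102, 1479 and 2259 and 291, 119 and 187, 2.10-fold and 2.44-fold lower. The Krüppel-like factors were split, with KLF9 higher at 688, 2426 and 604 and KLF2 and KLF4 lower at 785, 324 and 1388 and 720.4, 206 and 1047. ATF4, at 13809.9, 12137 and 9838, HIF1A, at 17433, 19032 and 21105, and NFE2L2, at 10584, 11455 and 8687, which are set largely at the protein level, were under 2-fold. The glucocorticoid target FKBP5 had 1129, 380.5 and 271, 2.97-fold lower, while its receptor gene NR3C1 had 3857, 4764 and 4204. For ATF3 2 other probe sets gave log2 ratios of 0.36 to 1.55 beside 2.13, for BHLHE41 1 gave 0.42 beside 1.78 and for KLF4 1 gave -0.27 beside -1.80.

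The HOX genes, which record where along the body a fibroblast came from, stayed within 2-fold. None of 18 measured HOX and partner genes passed 2-fold, with HOXB3 at 5289, 4339 and 5149. Among 64 developmental factors 5 were higher and 5 lower, and the lung mesenchyme factor FOXF1 had 8928, 13278 and 9657. SOX11 had 1359.9, 565 and 43.3, 2.41-fold lower in OIS and at least 29.9-fold lower in RS. For SOX11 2 other probe sets gave log2 ratios of -1.26 to -0.91 beside -1.27.

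In 3 lists of nuclear genes no member was 2-fold higher. Of 55 measured nuclear pore and transport genes none was higher and 6 were lower (10.9%), and the median log2 ratio was -0.47. NDC1, a pore membrane protein, had 2883, 798 and 966, 3.61-fold lower, NUP155 had 1013, 465 and 405 and the importin KPNA2 had 18584, 13431 and 12852. Of 83 splicing factors none was higher and 3 were lower (3.61%, against 6.83% of all genes), with a median of -0.24. Outside recombination, 5 of 60 repair genes were lower (8.33%, near the share of all genes) and none higher, among them the mismatch repair gene MSH6 at 3597, 1692 and 1871 and the nuclease gene MRE11 at 909, 375 and 571. DCLRE1B, the telomere nuclease Apollo, had 942, 246 and 301, 3.82-fold lower.

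Histone genes went the other way, with 6 higher and none lower of 31. H2BC5 had 1363, 3088 and 3358, H4C8 had 176, 622 and 727 and H2BC4 had 318, 759 and 974, and RS was at or above OIS for these 3. Replication-dependent histone mRNA normally lacks a poly(A) tail, and copies of these genes are near identical, so which transcripts such probe sets read is uncertain. H2AZ1, a variant with a polyadenylated mRNA, had 20548, 14929.9 and 9670.1. The RNA-binding protein ZFP36L2, which destabilizes AU-rich mRNA, had 4725, 1526 and 3059, 3.10-fold lower.

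The pregnancy-specific glycoproteins, placental hormones of the CEA family clustered on chromosome 19, separated the 2 senescent cultures. Of 11 measured genes of the list 6 were at least 2-fold lower in OIS and none higher, with a median log2 ratio of -1.04. PSG5 had 672, 173 and 2118, PSG6 had 636, 226 and 2054 and PSG9 had 664, 250.0 and 1818. PSG4 had 1671, 813 and 4183 and PSG1 had 1110.4, 507 and 2489.5. In RS 7 of the list were at least 2-fold higher than in growing cells. OIS was 12.2-fold lower than RS for PSG5 and 5.14-fold lower for PSG4. These genes are near copies, and their other probe sets gave smaller ratios, from -1.19 to 0.19 on the log2 scale for PSG6, so they are not independent measurements. For PSG5 the other probe set gave a log2 ratio of -0.48 beside -1.96, for PSG9 2 gave -1.38 to -0.02 beside -1.41 and for PSG1 2 gave -0.86 to -0.49 beside -1.13.

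MicroRNA precursors and host genes were measured by a few probe sets, which read the long transcripts and not the mature RNA. MIR146A, whose product restrains NF-kappaB signalling, was at least 29.4-fold higher in OIS at 2.0, 1339.6 and 28 by 1 probe set, but a second probe set gave a log2 ratio of -0.07 beside 4.88. MIR34A, a transcriptional target of p53, had 234, 997 and 576, 4.26-fold higher. Of 15 measured host genes 1, MIR210HG, the host of the hypoxia-induced miR-210, was higher at 54.9, 203 and 124, and a second probe set gave a log2 ratio of 0.94 beside 1.89. The 2 on the lower side were MIR100HG, the host of miR-100, let-7a-2 and miR-125b-1, at 3516, 1437 and 3726, and MIR3936HG. DLEU2, the host of miR-15a and miR-16-1, had 298, 58.7 and 51.8, although 2 other probe sets gave log2 ratios from -1.30 to -0.38 beside -2.34. The mature sequences that these transcripts carry are shown from RefSeq on GRCh38.p14, 5′ to 3′, with the seed, bases 2 to 8, in capitals.
miR-146a-5p (transcript higher in OIS): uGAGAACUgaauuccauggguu
miR-34a-5p (transcript higher): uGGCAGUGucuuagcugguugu
miR-210-3p (host higher): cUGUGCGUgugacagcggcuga
miR-100-5p (host lower): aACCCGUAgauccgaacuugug
let-7a-5p (host lower): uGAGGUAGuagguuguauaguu
miR-125b-5p (host lower): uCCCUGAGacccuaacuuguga
miR-15a-5p (host lower): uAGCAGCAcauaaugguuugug
miR-16-5p (host lower): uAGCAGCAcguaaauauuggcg
Among these 8, miR-15a-5p and miR-16-5p share the seed AGCAGCA, and the other 6 seeds differ from it and from each other. The seed GAGAACU of miR-146a-5p occurs in 3 mature RNAs of the RefSeq table. MIR146A lies on chromosome 5 and MIR34A on chromosome 1.

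Long noncoding RNAs were past 2-fold no more often than all genes. Of 765 measured, 22 (2.88%) were at least 2-fold higher and 49 (6.41%) lower. MALAT1, a nuclear RNA of the speckles, had 7092, 1815 and 9343, but its 11 other probe sets gave log2 ratios from -2.03 to 0.10. MAGI2-AS3 had 2113, 749.9 and 1480.1, 2.82-fold lower. SH3RF3-AS1 had 161, 918 and 405, 5.72-fold higher, and CARINH, an antisense transcript of the IRF1 locus, had 362, 725 and 444 beside IRF1 at 539.6, 1816 and 517. For CARINH 2 other probe sets gave log2 ratios of 0.53 to 0.88. These RNAs were chosen after their values were seen.

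Promoters were compared by the letters they hold, from 250 bases before to 50 after each start in the RefSeq table for GRCh38.p14, on both strands. No pattern searched contains another. A promoter was found for 10594 measured genes, 139 of the 183 at least 4-fold higher and 170 of the 213 at least 4-fold lower. The AP-1 motif TGANTCA was held by 11.5% of the higher, 2.35% of the lower and 4.75% of all measured genes. A kappaB motif was held by 20.1%, 12.4% and 13% in that order. Without the cytokine genes the shares of the higher genes were 8.94% for AP-1 and 15.4% for kappaB. Over all 27305 promoters of the table, measured or not, AP-1 was held by 7.76% and kappaB by 10.8%.

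The ETS motif CCGGAAGT was rare at the higher end, held by 1 of 139 promoters (0.719%), against 8.24% of the lower and 8.43% of all measured genes. The CHR motif TTTGAAA, an element of division genes, was held by 7.19% of the higher, 12.9% of the lower and 3.90% of all measured genes. Outside the cytokine and division lists it was held by 7.32% of the higher and 6.56% of the lower genes. The CArG motif of serum response factor was held by 2.88%, 0.588% and 1.12%. Base composition differed alongside: the median GC content was 58.7% in promoters of the higher, 63.5% in those of the lower and 65.0% in those of all measured genes. Its part in the motif shares was not tested. A match is a description of the letters and not a bound site.

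**Figure D5:**
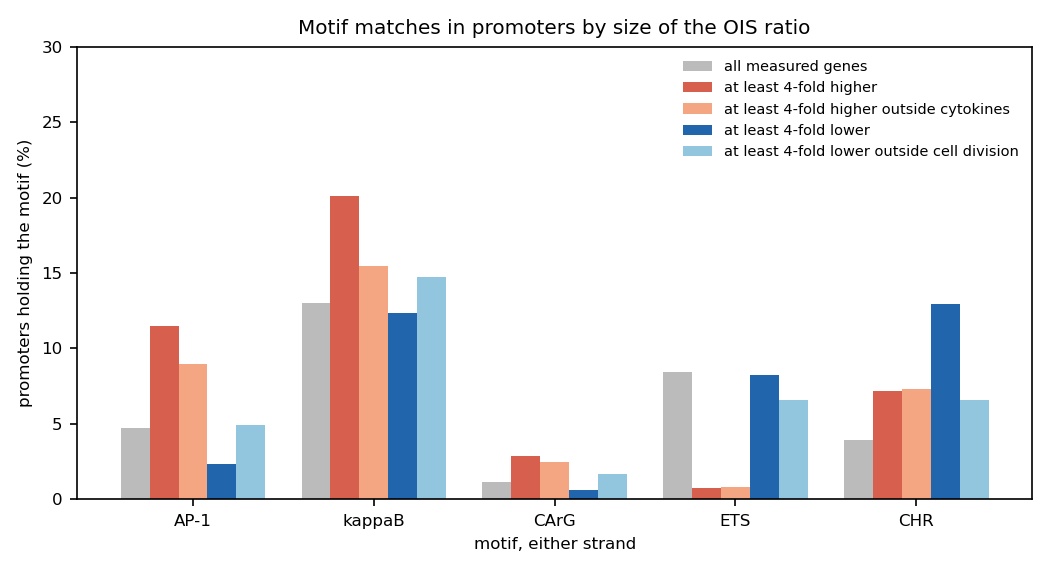
Share of promoters (y, %) that hold each of 5 motifs (x) on either strand, for all measured genes and for genes at least 4-fold higher or lower in OIS, with and without the cytokine or division lists. The AP-1 bar of the higher genes (11.5%) stands above that of all genes (4.75%), and the ETS bar of the higher genes (0.719%) is the shortest of its block.

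These motifs were also looked for in promoters of single ranked genes. Of the 25 highest 16 had a promoter in the table, but not every ranked promoter was searched. Among those searched, AP-1 or kappaB letters were found in 3, NFKBIZ, GDF15 and MMP10. The 3 may therefore be an undercount and gives no share of the 16. NFKBIZ, a nuclear partner of NF-kappaB, had 779.9, 10671 and 2128, and GDF15, a stress hormone, had 1643, 22452 and 1748, but 2 other probe sets gave log2 ratios from 0.85 to 1.23 beside 3.77. On the lower side kappaB letters also stood in promoters, among them that of PTGER2. The 4 promoters are shown to set the matches in their context, with the matched letters in capitals.
NFKBIZ, chr3:101827740-101828039, plus strand, kappaB: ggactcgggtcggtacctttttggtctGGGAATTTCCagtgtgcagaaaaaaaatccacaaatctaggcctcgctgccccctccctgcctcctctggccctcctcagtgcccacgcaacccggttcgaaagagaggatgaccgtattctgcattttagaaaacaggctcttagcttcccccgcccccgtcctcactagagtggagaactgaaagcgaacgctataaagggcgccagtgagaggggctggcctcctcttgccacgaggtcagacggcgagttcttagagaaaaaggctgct
GDF15, chr19:18385908-18386207, plus strand, kappaB: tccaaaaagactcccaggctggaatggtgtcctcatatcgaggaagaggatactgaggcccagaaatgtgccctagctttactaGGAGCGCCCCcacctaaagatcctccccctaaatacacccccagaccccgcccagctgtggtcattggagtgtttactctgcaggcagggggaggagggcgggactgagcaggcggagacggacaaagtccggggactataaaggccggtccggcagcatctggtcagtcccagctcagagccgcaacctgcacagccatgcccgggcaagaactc
MMP10, chr11:102780579-102780878, minus strand, AP-1: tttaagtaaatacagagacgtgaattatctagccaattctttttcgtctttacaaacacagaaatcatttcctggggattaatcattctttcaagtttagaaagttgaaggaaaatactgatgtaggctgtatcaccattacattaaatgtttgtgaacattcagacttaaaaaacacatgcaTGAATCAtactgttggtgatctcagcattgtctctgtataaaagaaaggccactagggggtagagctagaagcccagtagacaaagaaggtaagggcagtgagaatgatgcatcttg
PTGER2, chr14:52314062-52314361, plus strand, kappaB: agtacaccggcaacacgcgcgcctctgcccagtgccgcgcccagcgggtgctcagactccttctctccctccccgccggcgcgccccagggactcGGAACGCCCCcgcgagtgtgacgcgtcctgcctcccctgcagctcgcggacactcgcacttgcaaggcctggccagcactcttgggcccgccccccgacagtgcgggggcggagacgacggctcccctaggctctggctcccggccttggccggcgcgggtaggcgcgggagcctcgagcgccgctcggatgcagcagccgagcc
The AP-1 letters of MMP10 began 67 bases before the start. KappaB letters began 223 bases before the start in NFKBIZ, 166 in GDF15 and 155 in PTGER2, which was 8.71-fold lower. The same kind of match thus stood before genes of both directions.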

How the data were processed

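RNA of growing, OIS and RS cultures was measured on 1 Affymetrix expression array each. Per the submitters' processing notes the authors used MAS5, which gave the deposited linear intensity of each probe set. Its version was not given in the sources used here. The 2% trimmed mean was 497 on all 3 arrays, so this scaling removes any shift common to all genes. Depth has no meaning for arrays, and their number limits the precision.

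Gene names came from GEO's platform annotation. Of 54613 probe sets, 41091 named a single gene and were used, 1801 named several and 11721 none. Through their gene identifier 41037 were found in the RefSeq table, and 0 symbols needed updating. For each gene the probe set of highest mean log2 signal across arrays was kept. Values under the pooled median of 45.5 were raised to it, and log2 ratios were formed with no test, since each group has 1 array. Groups came from the labels' treatment.

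The comparison, the 63 gene lists described and the rule for named genes were chosen with earlier results of these data known. Not every gene that the rule allowed is named. Names were taken from the 25 largest and 25 smallest ranked ratios and the 20 largest lower bounds on each side. Both groups were without cytokine and division genes. Others named were list members past 2-fold, bright or unchanged members as contrast, and fixed genes. RS over growing shares the growing array with OIS over growing, so the RS values are given side by side. Promoter and microRNA sequences came from RefSeq tables of GRCh38.p14. The steps were tested on simulated data. Alternatives are listed in the closing section. Python 3.11.15, numpy 2.4.6, pandas 2.3.3 and matplotlib 3.10.9 were used.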

Additional observations from a re-analysis of the deposited data

How the results depend on the processing

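Past 2-fold were 663 genes on the higher and 893 on the lower side of 13078 measured. With the floor at the 25th percentile (11.7 units) the counts were 1543 and 1698, over 17562 genes, and with 3-fold in place of 2-fold they were 291 and 342. Quantile normalization gave 731 and 788, centring on the median 692 and 862, a floor at the 60th percentile (88.8 units) 531 and 740, and no floor with a pseudocount of 16 gave 775 and 978. The brightest probe set over the growing and OIS arrays gave 664 and 894, the median over a gene's probe sets 459 and 655, and leaving out probe sets that end in _s_at or _x_at, which can read several transcripts, 525 and 692. Without a filter on low values the counts were 663 and 893 of 19775 genes. They could not differ from the main counts, because genes at or below the floor on both arrays are equal once raised to it.

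Of the 245 named genes past 2-fold, 197 stayed past it in the same direction when all probe sets of a gene were combined by their median, 176 of the 197 that kept a probe set without the _s_at and _x_at ones, 234 with the higher floor, 240 with the pseudocount and 244 after quantile normalization. In the second of these ADCY7 had a log2 ratio of 0.0032 in place of -1.28 and PSG6 0.19 in place of -1.49, and the cause was not tested. No paired analysis was possible because each group has 1 array. Leaving out a replicate was not possible for the same reason.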
